A study of Drosophila melanogaster with 2 samples.

Results

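The vacuolar ATPase (V-ATPase) genes of Drosophila melanogaster were taken as all protein-coding genes whose symbol starts with Vha in the Ensembl annotation of the fly genome, and these were 33 of 13945 protein-coding genes on the 6 chromosome arms. By subunit, 13 belong to the ATP-hydrolysing V1 sector, 18 to the membrane-bound Vo sector and 2 are the accessory subunit VhaAC45 and its relative VhaAC45RP. Binding of NC2beta was measured by chromatin immunoprecipitation and sequencing with an antibody against GFP, in whole embryos of mixed sex aged 0 to 24 h from a transgenic line in which NC2beta carries eGFP at its C-terminus. There is 1 group of 2 biological replicates, which the labels number 1 and 3, so no groups could be compared and no test was made. The labels do not name the promoter that drives the fusion protein, and neither an untagged line nor the control alignment was analysed here. Each gene was given the authors' optimal peak whose summit lay within 250 bp of one of its transcription start sites (TSSs), or, where there was none, the highest region of the authors' longer list made from both replicates (the pooled list) within the same distance. Genes with an optimal peak are called bound, a word that stands for the presence of such a peak and nothing more. Whole embryos mix many cell types, so strong binding in few cells and weak binding in many cannot be told apart.

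The V-ATPase is a rotary proton pump. Its V1 sector hydrolyses ATP in the cytosol and turns a central stalk, which drives a ring of proteolipids in the Vo sector and moves protons into lysosomes, endosomes, secretory vesicles and, in some fly epithelia, out of the cell. Many subunits are encoded by several fly genes, of which some are broadly used and others are known mainly from single tissues. In mammals the MiT/TFE transcription factors, and in flies their single relative Mitf, are known to regulate V-ATPase and lysosome genes. NC2beta forms with NC2alpha the factor NC2, which binds the TATA-binding protein on DNA, and the fly protein is known to repress TATA promoters and to activate promoters with a downstream promoter element (DPE).

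The promoter windows of the 3 genes for the catalytic A subunit are given first, because these paralogs differed in binding while encoding closely related proteins, followed by those of the bound member with the highest peak, Vha55, and the bound member with the lowest, VhaM9.7-c. Each window is 300 bases of the Release 6 genome (build dm6, RefSeq), read 5′ to 3′ on the gene's strand, with 250 bases before the TSS and the TSS as base 251. The capitals mark the elements found by the search described with the elements: the Motif 1 core in Vha68-2, a TATA-like box in Vha68-1, 2 initiators and a Motif 6 core in Vha68-3, the DNA replication-related element (DRE) and Motif 7 in Vha55. The window of VhaM9.7-c held none of the elements sought.
Vha68-2, chr2L:12974072-12974371, plus strand: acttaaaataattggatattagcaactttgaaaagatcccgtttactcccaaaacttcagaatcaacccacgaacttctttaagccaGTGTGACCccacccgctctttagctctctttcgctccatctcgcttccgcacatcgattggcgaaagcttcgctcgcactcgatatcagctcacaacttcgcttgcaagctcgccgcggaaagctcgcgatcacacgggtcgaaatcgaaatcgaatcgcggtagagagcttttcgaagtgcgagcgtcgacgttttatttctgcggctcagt
Vha68-1, chr2L:13004058-13004357, minus strand: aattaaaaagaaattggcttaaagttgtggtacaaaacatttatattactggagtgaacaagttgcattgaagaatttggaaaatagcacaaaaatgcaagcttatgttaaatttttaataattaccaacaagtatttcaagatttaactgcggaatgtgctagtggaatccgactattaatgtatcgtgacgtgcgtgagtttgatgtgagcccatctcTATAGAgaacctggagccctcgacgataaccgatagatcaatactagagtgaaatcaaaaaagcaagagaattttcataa
Vha68-3, chr2L:12978536-12978835, plus strand: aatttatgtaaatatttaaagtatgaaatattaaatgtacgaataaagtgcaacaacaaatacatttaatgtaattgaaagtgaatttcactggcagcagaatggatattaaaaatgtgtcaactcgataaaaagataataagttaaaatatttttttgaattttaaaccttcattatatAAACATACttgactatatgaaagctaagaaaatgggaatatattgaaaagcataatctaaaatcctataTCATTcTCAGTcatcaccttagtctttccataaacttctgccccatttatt
Vha55, chr3R:12627780-12628079, minus strand: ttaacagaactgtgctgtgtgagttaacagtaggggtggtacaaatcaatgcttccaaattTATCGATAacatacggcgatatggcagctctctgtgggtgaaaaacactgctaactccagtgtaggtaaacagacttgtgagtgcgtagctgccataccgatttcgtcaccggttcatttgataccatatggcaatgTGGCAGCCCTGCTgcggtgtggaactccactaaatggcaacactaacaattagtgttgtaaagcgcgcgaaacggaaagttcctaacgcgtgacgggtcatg
VhaM9.7-c, chr3L:4186816-4187115, minus strand: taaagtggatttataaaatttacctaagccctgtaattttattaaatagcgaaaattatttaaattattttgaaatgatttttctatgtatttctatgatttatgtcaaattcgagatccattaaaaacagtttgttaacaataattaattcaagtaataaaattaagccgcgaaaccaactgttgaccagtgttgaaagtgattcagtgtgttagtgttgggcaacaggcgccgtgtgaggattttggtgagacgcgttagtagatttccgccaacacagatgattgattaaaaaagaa

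Of the 33 Vha genes, 8 had an optimal peak at a TSS (24.2%), against 2450 of all 13945 protein-coding genes (17.6%). The bound members were Vha68-1, Vha68-2, Vha55, Vha44, Vha36-1, Vha16-1, VhaM9.7-c and VhaAC45. A further 11 members had only a lower region of the pooled list, so that 19 of 33 (57.6%) had a region of any height, against 48.5% of all genes. The remaining 14 members had none within 250 bp. Both shares lie near those of all genes and were not tested. Within 100 bp of a TSS, the share with a region of any height was 30.3% of the Vha genes, against 32.9% of all genes. The sectors were covered unevenly. In V1, 5 of 13 genes were bound (38.5%), 4 had a lower region and 4 had none. In Vo, 2 of 18 genes were bound (11.1%), 6 had a lower region and 10 had none. The Vo sector holds the families with most copies, the 5 Vha100 and the 5 Vha16 genes, and members of a family are not independent of each other, so the difference between the sectors was not tested.

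**Figure D1:**
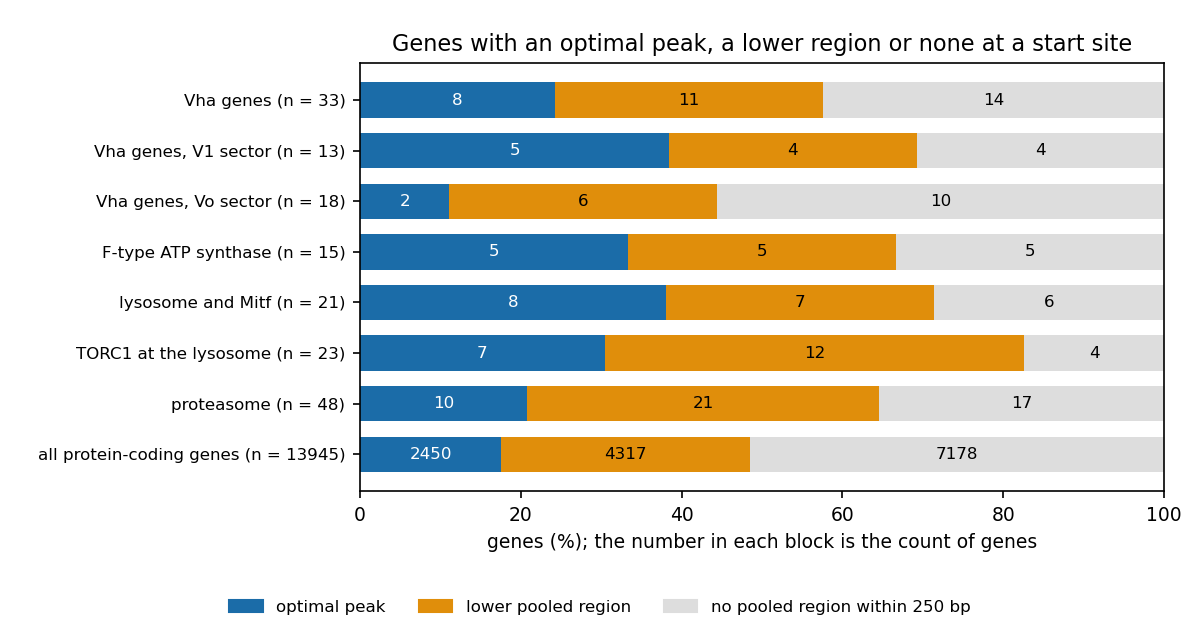
Share of genes, in percent, with an optimal peak, with only a lower pooled region and with no pooled region whose summit lies within 250 bp of a TSS; the number in each block counts the genes. Of the 33 Vha genes 8 were bound, 5 of 13 in V1 and 2 of 18 in Vo, against 2450 of all 13945 protein-coding genes.

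Heights are the signal values that the authors' peak caller gave to the regions. Their unit is not stated, so heights were compared within a list only, by rank or as a ratio of signal values. Such a ratio need not be a ratio of binding. The 3897 optimal peaks had heights between 74.1 and 1496 and were the highest 3897 of the 30000 regions in the pooled list. The 8 bound members lay between 88.9 and 219, with a median of 139, against a median of 114 and a range of 74.2 to 1460 over all bound genes. Thus 5 of the 8 exceeded the median of all bound genes, while none came near its top. To set the replicates side by side, each replicate's height was divided by that replicate's median over the optimal peaks, which was 68.8 in replicate 1 and 46.1 in replicate 3, and a relative height of 1 is then that of a typical optimal peak.

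The A subunit carries the catalytic sites of V1 and has 3 genes, all on arm 2L. Vha68-2, a gene with 5 TSSs, had a peak of height 192 (rank 718 of the pooled list) at positions 12974018 to 12974417. Its height was 119 in replicate 1 and 73.1 in replicate 3, a relative height of 1.66 ± 0.0985 (SD, n = 2). Vha68-1 had a lower and narrower peak, of height 122 (rank 1667), at 13004167 to 13004278. Its height was 76.5 in replicate 1 and 54.5 in replicate 3, a relative height of 1.15 ± 0.0500 (SD, n = 2). Vha68-2 was thus the higher of the pair in both replicates, 1.57 times in the pooled list, 1.55 times in replicate 1 and 1.34 times in replicate 3. Vha68-3, which lies between them, had no region: its nearest pooled region lay 1445 bp from the TSS with a height of 23.5, and its nearest optimal peak, that of Vha68-2, lay 4568 bp away. The proteins of Vha68-1 and Vha68-2 were identical at 91.9% of aligned residues, and those of Vha68-3 at 72.1% with Vha68-1 and at 74.6% with Vha68-2. In contrast, the longest run of bases that the promoter windows of Vha68-1 and Vha68-2 had in common was 8 bases, and their elements differed.

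The B subunit, which binds nucleotide without being the main catalytic subunit, has the single gene Vha55, and this was the member with the highest peak. The peak, at 12627740 to 12627915 on arm 3R, had a height of 219 (rank 535), with 146 in replicate 1 and 70.3 in replicate 3. The relative heights were 2.13 in replicate 1 and 1.53 in replicate 3, a mean of 1.83 ± 0.426 (SD, n = 2), so the replicates differed more here than at the A subunit genes. A second optimal peak, of height 75.9, lay at −238 bp from the same TSS and 36 bp from the TSS of the neighbouring Snx3, a sorting nexin gene, with its summit in an untranslated exon of Snx3.

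Vha44, the single gene for the peripheral stalk subunit C, had a peak of height 99.8 (rank 2401) at 16336580 to 16336979 on arm 2R. It measured 59.8 in replicate 1 and 39.7 in replicate 3, with almost equal relative heights (0.866 ± 0.00511, SD, n = 2), both under that of a typical optimal peak. Its summit lay in an untranslated exon of Hmgs, which encodes HMG-CoA synthase, and the peak was also within 250 bp of a TSS of that gene. The central stalk subunit D has 3 genes. Vha36-1 had a peak of height 155 (rank 1078) at 15541308 to 15541467 on arm 2R, with 96.4 in replicate 1 and 60.1 in replicate 3, a relative height of 1.35 ± 0.0689 (SD, n = 2). This peak lay within 250 bp of a TSS of CG8187 as well. Vha36-3, 85.0% identical in protein to Vha36-1, had a region of height 19.0, near the bottom of the pooled list (rank 27920), with none in replicate 3. The nearest region of replicate 1, of height 11.5, lay 320 bp from the TSS of Vha36-3. In the pooled list the height at Vha36-1 was 8.17 times that at Vha36-3. The value at Vha36-3 is close to the lowest of that list, 18.0, so this ratio does not measure how far the genes differ. Vha36-2, 38.0% identical to Vha36-1, had no region, and its nearest one was an optimal peak 2105 bp away.

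The remaining V1 subunits had lower regions or none. Vha13, the peripheral stalk subunit G, came closest to the optimal set, with a height of 67.6 against the lowest optimal peak at 74.1. It measured 35.2 in replicate 1 and 34.9 in replicate 3, relative heights of 0.511 in replicate 1 and 0.758 in replicate 3. Ranked by replicate 3 alone, Vha13 would be among the 3897 highest regions. Vha26, the peripheral stalk subunit E, had a region of height 62.9, with 29.0 in replicate 1 and 33.6 in replicate 3, at −246 bp, a distance that only just counted, and within reach of a TSS of the splicing factor gene noi. VhaSFD, the regulatory subunit H, had a region of 21.7 (rank 23005). Its replicate summits lay at 17 bp and 200 bp downstream of the TSS, on either side of the pooled summit at 104 bp. Vha14-1 and Vha14-2, the central stalk subunit F, had no region of the pooled list at their TSSs, although replicate 1 alone gave a region of 18.9 at Vha14-1.

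**Figure D2:**
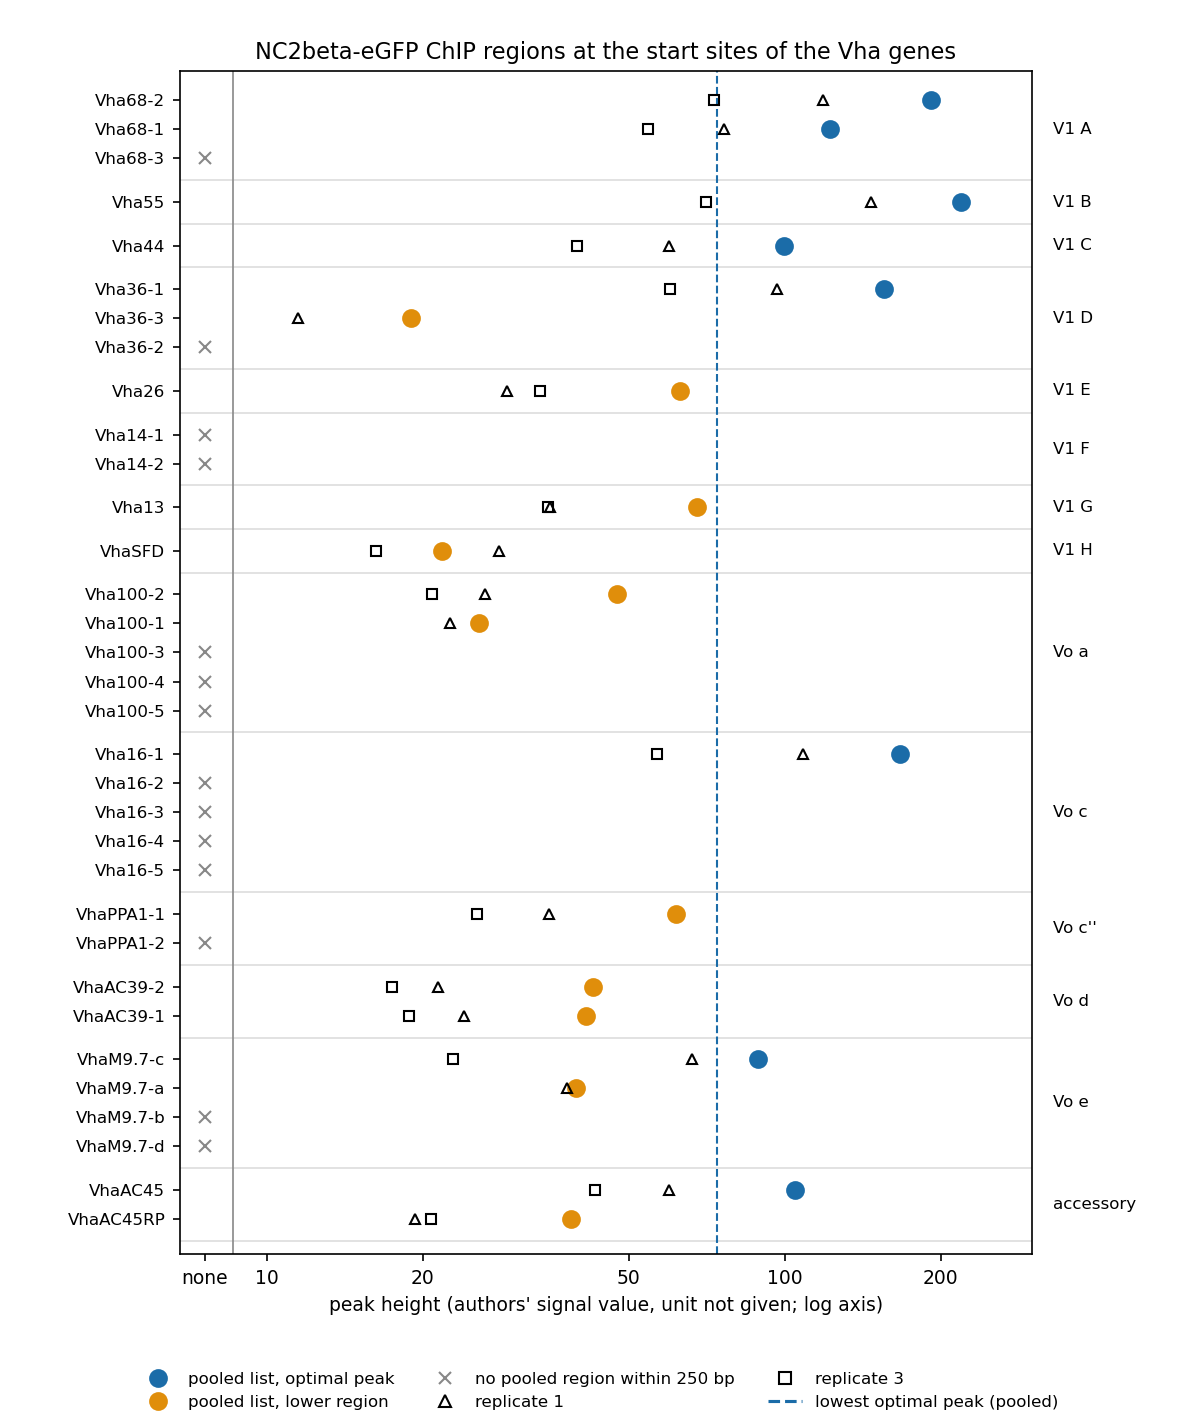
Peak height (authors' signal value, log axis) at each of the 33 Vha genes, grouped by subunit: filled circles are the pooled list, triangles replicate 1, squares replicate 3, and the dashed line is the lowest optimal peak, at 74.1. Crosses in the left strip mark the 14 genes with no pooled region and have no height; Vha55, at 219, and Vha68-2, at 192, stood highest.

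In the Vo sector the a subunit, which forms the path of protons past the ring, has 5 genes, and none was bound. Vha100-2 had a region of height 47.4, with 26.4 in replicate 1 and 20.9 in replicate 3. Vha100-1, known for its role in neurons, had a region of 25.7, with 22.6 in replicate 1 and none in replicate 3. Vha100-3, Vha100-4 and Vha100-5 had none, and around Vha100-5 the nearest pooled region of any height was 58115 bp away. The a subunit proteins shared 38.1% to 68.0% of aligned residues. The proteolipid subunit c, which builds the ring, also has 5 genes. Vha16-1 had a peak of height 167 (rank 948) at 6632994 to 6633393 on arm 2R, the highest in Vo. It measured 108 in replicate 1 and 56.7 in replicate 3, a relative height of 1.40 ± 0.243 (SD, n = 2). Vha16-2, Vha16-3, Vha16-4 and Vha16-5 had no region within 250 bp in the pooled list or in either replicate. The protein of Vha16-3 was 83.4% identical to that of Vha16-1, and the other 3 were 67.9% to 69.4% identical to it.

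VhaPPA1-1, a proteolipid of subunit c'', had a region of height 61.7 with 35.1 in replicate 1 and 25.4 in replicate 3, and its paralog VhaPPA1-2 had none. The d subunit, which couples the ring to the central stalk, was the only one whose paralogs stood in the opposite order in both replicates. VhaAC39-2 stood at 42.7 and VhaAC39-1 at 41.3 in the pooled list, but replicate 1 gave 21.4 at VhaAC39-2 and 24.0 at VhaAC39-1, and replicate 3 gave 17.4 at VhaAC39-2 and 18.9 at VhaAC39-1. The e subunit is a small membrane protein with 4 genes. VhaM9.7-c had a peak of height 88.9 (rank 2935) at 4186685 to 4187084 on arm 3L, in introns of CG18675 and Teh2. It was the bound member that rested most on 1 replicate: it measured 66.2 in replicate 1 (rank 2105) but 22.8 in replicate 3 (rank 6415), a relative height of 0.729 ± 0.330 (SD, n = 2). VhaM9.7-a had a region of 39.4, with 38.0 in replicate 1 and none in replicate 3, and VhaM9.7-b and VhaM9.7-d had none.

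Of the accessory pair, VhaAC45, the fly relative of the mammalian accessory subunit Ac45, had a peak of height 105 (rank 2221) at 9207335 to 9207734 on arm 2R. It measured 59.7 in replicate 1 and 43.1 in replicate 3, a relative height of 0.901 ± 0.0477 (SD, n = 2). VhaAC45RP had a region of 38.7, with 19.3 in replicate 1 and 20.7 in replicate 3. The height at VhaAC45 was 2.70 times that at VhaAC45RP in the pooled list, 3.09 times in replicate 1 and 2.08 times in replicate 3. In protein the pair shared 27.0% of aligned residues.

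Both replicates held the bound members with 1 exception. A region among the 3897 highest of both replicates lay at 7 of the 33 Vha genes (21.2%), against 12.9% of all genes, and these 7 were the bound members other than VhaM9.7-c. Of the 11 members with a lower region, 8 had a region within 250 bp of the pooled summit in both replicates. The other 3 (Vha36-3, Vha100-1 and VhaM9.7-a) had it in replicate 1 only. How often lower regions were found in both replicates was not counted over all genes, so these counts have no background to be read against. Counted from the TSS, the replicate 1 region of Vha36-3 lay at 320 bp and the replicate 3 region of Vha26 at −259 bp, both beyond the limit. The lower list reaches into background by its construction. The −log10 of the q value that the authors deposited was at its ceiling of 4.08 for Vha13, Vha26 and VhaPPA1-1, and was only 0.251 at Vha36-3, 0.353 at VhaSFD and 0.541 at Vha100-1.

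Within subunits, binding was spread unevenly over paralogs. Counting the accessory pair as 1, there were 14 subunits, 5 with a single gene and 9 with several. Among the 5 single-gene subunits, 2 genes were bound (Vha55 and Vha44) and 3 had a lower region (Vha26, Vha13 and VhaSFD). Among the 9 several-gene subunits, 5 had at least 1 bound gene, 4 of these had exactly 1, and 0 had all genes bound. The A subunit was the exception with 2 of 3. Pairs of paralogs could be ordered by pooled height in 25 cases. For the replicates, each gene was here given the highest region of that replicate within 250 bp of its TSSs, and a gene with no such region counted as the lower. The pooled order was then found in replicate 1 for 23 pairs and in replicate 3 for 18. Only 6 of the 25 pairs had a pooled region at both genes. Differences in height between paralogs were therefore mostly differences between a region and none. Of these 6 pairs, 5 had the same order in both replicates, but partly by the rule that absence counts as lower. Vha36-3 had no such region in either replicate, and Vha100-1 and VhaM9.7-a had none in replicate 3. Where both genes had a region in both replicates, Vha68-2 with Vha68-1 and VhaAC45 with VhaAC45RP kept the pooled order. The VhaAC39 pair reversed it. The pooled list was itself made from these replicates. How far the paralogs were expressed in these embryos was not measured.

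The summits of the bound members lay upstream of the nearest TSS in 8 of 8 cases, between −143 and −20 bp with a median of −59 bp, where negative positions are upstream. Over all bound genes, 81.1% of summits lay upstream, with a median position of −73.5 bp. The summits nearest to a TSS were those of VhaM9.7-c at −20 bp, VhaAC45 at −26 bp, Vha55 at −39 bp and Vha36-1 at −41 bp. Those of Vha68-1 at −77 bp, Vha68-2 and Vha16-1 at −104 bp each and Vha44 at −143 bp lay farther out. The summits of both replicates lay within 20 bp of the pooled one at Vha55, Vha68-2, Vha16-1, Vha36-1 and VhaM9.7-c. They lay farther off at the other 3. At Vha44 the summit lay at −85 bp in replicate 1 and at −194 bp in replicate 3. At Vha68-1 it lay at −146 bp in replicate 1 and at −77 bp in replicate 3, and at VhaAC45 at −37 bp in replicate 1 and at −88 bp in replicate 3. Of the 11 lower members, 3 (Vha13, Vha26 and VhaM9.7-a) had their summit upstream, and the other 8 lay 42 to 208 bp downstream, within the gene. Over all 4317 genes with a lower region, 57.2% of summits lay upstream, also a smaller share than over all bound genes, and no difference here was tested. Among the 8 downstream members, the summits of VhaAC39-2 and VhaAC45RP fell in coding exons.

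**Figure D3:**
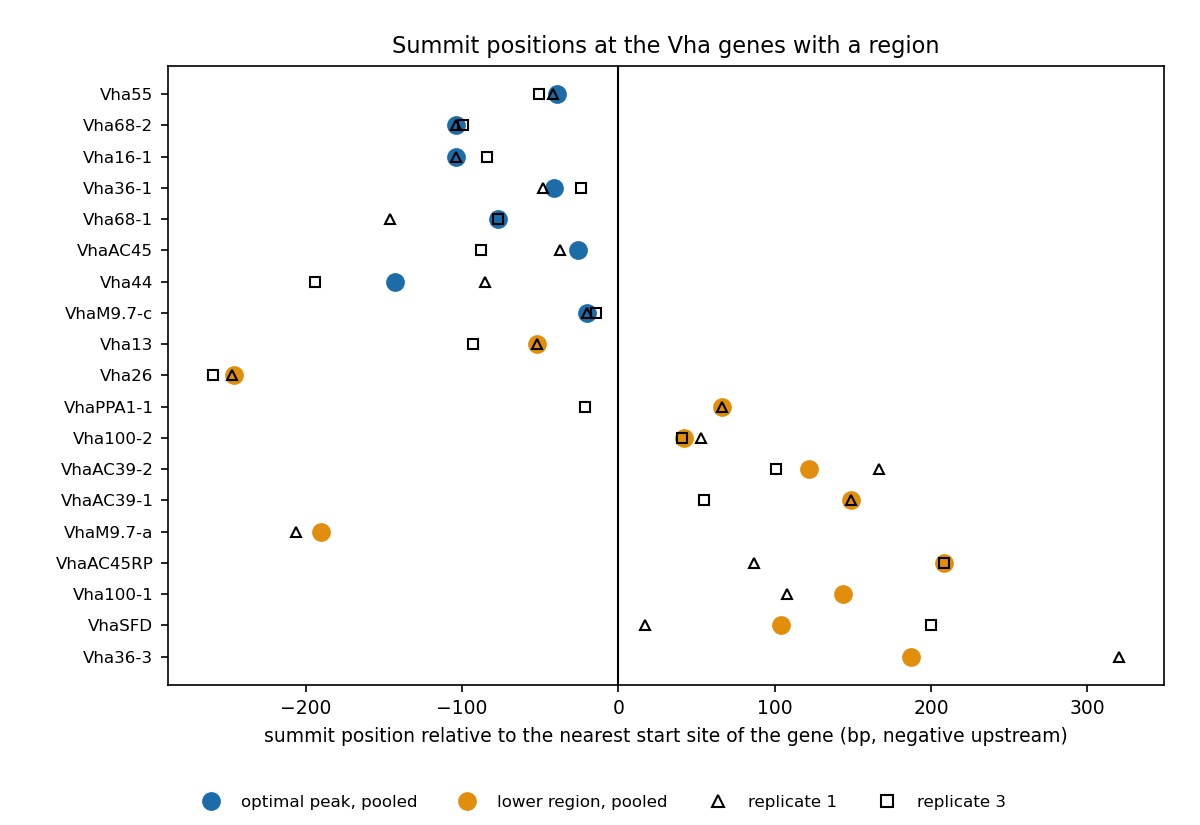
Position of the summit relative to the nearest TSS of the gene, in bp, negative upstream, for the 19 Vha genes with a region; filled circles are the pooled list, triangles replicate 1 and squares replicate 3. The 8 bound members, at the top, all lie upstream, between −143 and −20 bp, and 8 of the 11 lower members lie downstream.

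A peak near the TSSs of several genes cannot be given to one of them by position. Neighbours were counted by distance alone, whatever their strand. Of the 8 bound members, 3 shared their peak with a neighbour whose TSS was also within 250 bp of the summit (37.5%): Vha55 with Snx3, Vha44 with Hmgs and Vha36-1 with CG8187. Over all bound genes, 47.3% shared theirs. Vha68-2, Vha68-1, Vha16-1, VhaAC45 and VhaM9.7-c were alone at their peaks, although the summit at VhaM9.7-c lies in introns of other genes.

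Some unbound members lay just beyond the distance limit of an optimal peak. The peak nearest to Vha16-5 had a height of 211 (rank 582) and lay 284 bp upstream of it, but only 18 bp from the TSS of CG12299. A peak of height 88.1 lay 384 bp upstream of VhaM9.7-b and 31 bp from the TSS of COX8, a gene for a subunit of cytochrome c oxidase. The highest peak within 1000 bp of any member's TSS, at 281 (rank 326), lay in an intron of Vha100-2, 300 bp upstream of one of its TSSs and 233 bp from a TSS of Vti1b, a SNARE gene that overlaps it. That peak measured 154 in replicate 1 and 130 in replicate 3, a relative height of 2.52 ± 0.412 (SD, n = 2). A peak of 219 lay 862 bp downstream of the TSS of Vha14-1 and 266 bp from that of Gmppa. In all of these cases another gene's TSS was nearer to the summit. With a limit of 500 bp, 11 of 33 Vha genes had an optimal peak (33.3%), against 20.7% of all genes, the added members being Vha16-5, VhaM9.7-b and Vha100-2. Inside the gene bodies, Vha16-1 held lower regions of up to 60.7 in its introns, this one 1705 bp downstream of the nearest TSS.

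Elements of core and proximal promoters were sought in the window of 300 bases of each gene, at the TSS nearest to the assigned summit. Position 1 is the TSS and there is no position 0. Read on the gene strand were the TATA box (TATAAA with at most 1 mismatch, starting at −40 to −20), the initiator (TCAGT or TCATT, its A within 10 bases of the TSS), the DPE (a purine, a guanine, an adenine or thymine, a pyrimidine and any base but thymine, in this order, starting at 28 counted from the A of an initiator) and the TCT element (CTTT with 2 pyrimidines on each side, its C within 5 bases of the TSS). Sought on both strands were DRE (TATCGAT), Motif 1 (GGTCACAC), Motif 6 (GTATNTTT), Motif 7 by its consensus, the Zelda site (CAGGTA), the GAGA site (GAGAGAG), the E-box (CACGTG), the MiT/TFE site (TCACGTG), which contains that E-box, and the M-box (TCACATG). A match describes letters in the window and is not evidence of a factor on it.

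TATA-like boxes were found in 4 of 33 Vha windows (12.1%), against 23.9% of all genes and 13.9% of all bound genes. They were at Vha68-1, Vha16-1, Vha36-2 and Vha16-3, of which the first 2 are among the 8 bound members. Initiators were found in 7 (21.2%), against 17.9% of all genes and 13.1% of all bound genes. Neither a DPE nor a TCT element was found in any Vha window, against 3.97% and 0.516% of all genes. The DRE was found in 5 (15.2%), against 18.1% of all genes and 29.5% of all bound genes, at Vha55, Vha36-1, Vha13, VhaSFD and VhaM9.7-a. All 5 of these had an optimal or a lower region, as did 74.1% of all genes with a DRE. Motif 1 was found in 4 (12.1%), against 7.81%, Motif 6 in 4, against 14.8%, and Motif 7 in 3 (9.09%), against 9.67% of all genes. The Zelda site was found in 1 (3.03%), against 6.24%, and the GAGA site in 2 (6.06%), against 6.43% of all genes. None of these differences in share was tested.

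At some bound members an element lay close to the summit. In Vha36-1 the DRE at −45 to −39 was centred 1 bp from the summit. In Vha55 Motif 7, at −52 to −40, was centred 7 bp from it, while the DRE at −189 to −182 lay far upstream. In VhaAC45 the centre of the Motif 6 core at −47 to −40 was 17 bp from the summit, and that of the M-box at −11 to −5 was 18 bp from it. The replicate summits there lay at −37 bp in replicate 1 and at −88 bp in replicate 3. Among the lower members the DRE of VhaM9.7-a was 4 bp from the summit of a region absent from replicate 3. All these distances are from the pooled summit, and how often elements lie this close over all genes was not counted. In Vha68-2 the Motif 1 core at −163 to −156 was 55 bp from the summit, and in Vha68-1 the TATA-like box at −30 to −25 was 50 bp from it. Vha16-1 held a TATA-like box at −28, an initiator at 5 and Motif 7 at −79, the last 31 bp from its summit.

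**Figure D4:**
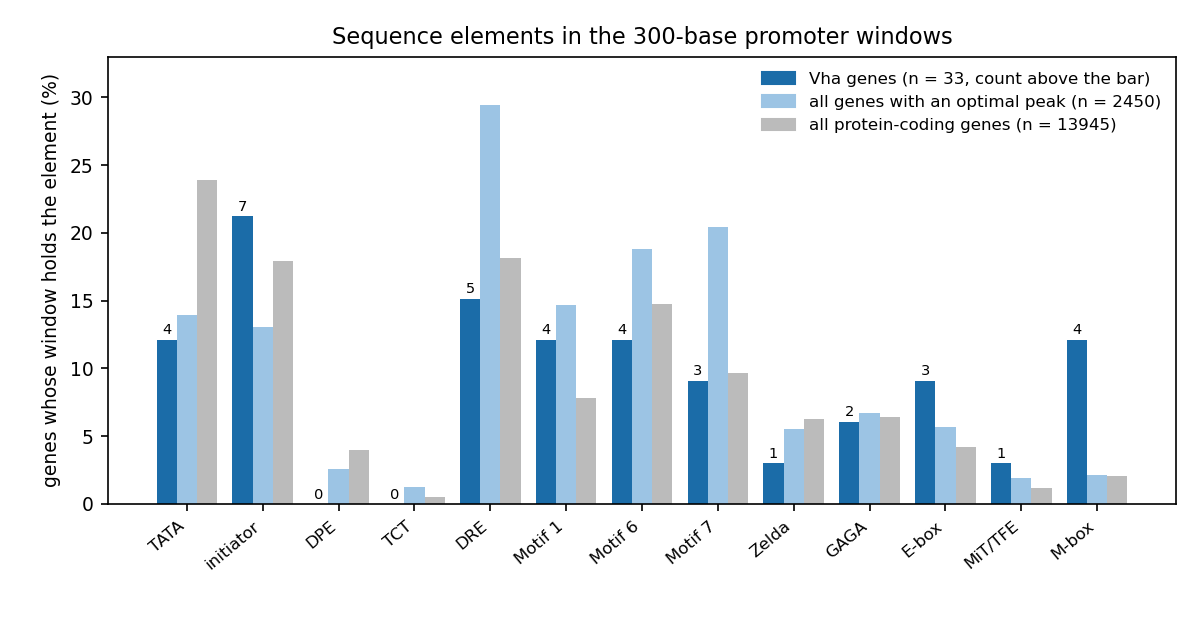
Share of genes, in percent, whose window of 300 bases holds each element, for the Vha genes (dark bars, count above), all genes with an optimal peak (light bars) and all protein-coding genes (grey bars). The M-box was found in 4 of 33 Vha windows, against 2.05% of all genes, and no Vha window held a DPE or a TCT element.

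The sites linked to the Mitf family were each found in 1 to 4 Vha windows. Their shares were above those of all genes, and these differences were not tested. The E-box was found in 3 Vha windows (9.09%), against 4.21% of all genes, at Vha44, VhaM9.7-d and VhaAC45RP. The MiT/TFE site was found in 1 (3.03%), against 1.17%, at Vha44, where it reads the same on both strands at −48 to −41 and lies 98 to 99 bp from the summit. The M-box was found in 4 (12.1%), against 2.05% of all genes and 2.16% of all bound genes, at Vha14-1, VhaPPA1-1, VhaM9.7-b and VhaAC45. Of these, VhaAC45 was bound, VhaPPA1-1 had a lower region and Vha14-1 and VhaM9.7-b had none. Stretches of 47 bases around the site are shown for VhaPPA1-1 and VhaM9.7-b, from the same genome and on the gene's strand. The capitals mark the M-box, which reads TCACATG on the opposite strand, downstream of the TSS at 36 to 42 in VhaPPA1-1 and at 24 to 30 in VhaM9.7-b.
VhaPPA1-1, chr3R:14904000-14904046, minus strand: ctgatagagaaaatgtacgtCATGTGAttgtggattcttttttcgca
VhaM9.7-b, chr3L:21539865-21539911, plus strand: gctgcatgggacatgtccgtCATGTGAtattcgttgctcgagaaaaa

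Other genes that work with the pump, or that serve as large complexes for comparison, gave shares between 0% and 38.1% bound, against 24.2% of the Vha genes and 17.6% of all genes. Among 4 regulators and assembly factors of the V-ATPase, 0 were bound. ATP6AP2, the fly relative of the prorenin receptor, had a lower region of 59.7, mtd one of 69.2, Rbcn-3A, a rabconnectin, one of 34.1, and Rbcn-3B had none. The F-type ATP synthase is the mitochondrial rotary enzyme that makes ATP. Of 15 genes with symbols starting with ATPsyn, 5 were bound (33.3%): ATPsynC at 146, ATPsynF at 131, ATPsynE at 99.7, ATPsynB at 83.8 and ATPsynbeta at 74.4. The heights of the bound Vha genes, 88.9 to 219, overlap that range.

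Of the list of lysosome and autophagy genes with Mitf (the lysosome list), 8 of 21 were bound (38.1%), Hexo2 at 299, Atg8a at 179, Ppt1 at 119, Atg9 at 108, Atg18a at 101, spin at 97.6, CtsL1 at 76.7 and CtsB at 75.0. Mitf itself had a lower region of 26.1. Of the list of genes of the TORC1 kinase pathway, 7 of 23 were bound (30.4%): Lamtor3 at 161, Thor at 155, Wdr24 at 113, Rheb at 100.1, Lamtor4 at 98.7, S6k at 98.0 and Lamtor5 at 74.7. Of the proteasome list, 10 of 48 were bound (20.8%), Rpn3 at 237, Rpn5 at 181, Rpn6 at 147, Prosbeta1 at 131, Rpn9 at 119, Rpn2 at 107, Rpt5 at 85.6, Rpn10 at 84.3, Rpt2 at 81.8 and Rpn13 at 76.7. Many of these peaks also lay within 250 bp of a neighbour's TSS and cannot be given to a single gene by position. This held for 9 of 10 bound genes of the proteasome list, 6 of 8 of the lysosome list and 4 of 7 of the TORC1 list. It held for 2 of 5 of the ATP synthase list and 3 of 8 bound Vha genes. CtsL1 and Rpn13 shared the same peak, which counts in both lists. No list was tested against another, and the Vha genes, with 24.2% bound, lay inside the range of these lists.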

How the data were processed

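The deposited dm6 lists were used: 1 list of 30000 regions per replicate, 1 of 30000 regions from both replicates together and the authors' optimal set, chosen by irreproducible discovery rate, per the file lists deposited with them. They give a signal value (height, unit not stated), the −log10 of the q value deposited by the authors, and a summit. Chromatin was sonicated to 200 to 800 bp, per the labels' protocols. The aligner is not given in the sources used here, nor is the peak caller, and no normalization of heights is stated. As read depth is unknown, no interval was computed. The dm3 lists were not used.

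TSSs came from Ensembl release 115 and sequence from the Release 6 genome. A replicate's value is its region nearest to the assigned summit within 250 bp, except in the order of paralogs, for which it is the highest region at the gene's TSSs. Heights were divided by the replicate's median over those 3884 optimal peaks that had a region in each replicate. Every member is named, and of the related lists the bound genes; the lower or unbound regulators and Mitf were named after their values were seen. Of the symbols listed, 4 of 7 regulators, 21 of 24 of the lysosome list and 23 of 24 of the TORC1 list matched. The ATP synthase list took every symbol starting with ATPsyn. The proteasome list took every symbol starting with Prosalpha, Prosbeta, Rpn or Rpt. Both thus include paralogs, and a subunit under another symbol would be missed. Proteins translated from the annotation were aligned globally without a penalty for gaps at the ends (Biopython 1.88, BLOSUM substitution matrix, gap opening 11, extension 1). Identity was counted over aligned residues only. Python 3.11.15, numpy 2.4.6 and matplotlib 3.10.9 were used. The code passed 7 of 7 checks on simulated data. The members and lists were chosen with earlier results of these data known. Alternatives varied the distance limit, TSS choice, threshold, scaling, window and TATA mismatch, and left out each replicate.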

Additional observations from a re-analysis of the deposited data

How the results depend on the processing

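The bound members numbered 5 with summits within 100 bp (Vha16-1, Vha44 and Vha68-2 were lost; 10.5% of all genes) and 5 in the highest 50% of the optimal peaks (Vha44, VhaAC45 and VhaM9.7-c were lost; 9.01% of all genes). Without a replicate they numbered 8 to 8. Replicate 1 alone gave the same 8 (24.2%, against 17.9% of all genes). Replicate 3 alone lost VhaM9.7-c and gained Vha13 (24.2%, against 16.4% of all genes). With a peak that covers the TSS they were 7, without Vha68-1 (21.2%, against 14.9% of all genes). Members with any region numbered 10 within 100 bp, 30.3% and thus below the 32.9% of all genes. Without a replicate they numbered 15 to 19, and replicate 3 alone gave 45.5%, against 43.2% of all genes. The median relative height was 1.25, was 4.27 when divided by the whole list's median, a scale set by that median alone, and was 1.21 to 1.26 without a replicate. The median offset was −80.5 to −66.5 bp without a replicate, against −59 bp. TATA with no mismatch left 1 Vha gene (7.86% of all genes), and the window from 100 bases before the TSS left DRE in 2 (6.06%, against 14.2% of all genes), Motif 1 in 2 (6.06%, now below the 6.65% of all genes) and GAGA in 1 (3.03%, against 3.51%). Of the related lists, regulators had 0 to 1 of 4 bound without a replicate, TORC1 6 to 9 of 23 and the proteasome 8 to 10 of 48. The share of all genes was then 16.4% to 17.9%. Within 100 bp the lysosome list had 5 of 21 and the proteasome 6 of 48, against 10.5% of all genes. Beyond the construction of each alternative, the cause was not tested. No paired analysis was possible because there is only 1 group. The unknown depth and unit of height leave small differences, such as that within the VhaAC39 pair, beyond what these lists can show.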

Other observations

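The 4 M-box matches of the Vha genes extended to the same 9 letters, GTCATGTGA, on either strand. This longer core was chosen after the sites were seen, so its counts are a description and were not tested. It was found in 4 of 33 Vha windows (12.1%), against 18 of all 13945 protein-coding genes (0.129%) and 4 of the 2450 bound genes (0.163%). Its positions were 1 to 9 in Vha14-1, 34 to 42 in VhaPPA1-1 and 22 to 30 in VhaM9.7-b, on the gene strand and at or downstream of the TSS. In VhaAC45 it stood at −11 to −3 on the other strand. The remaining 14 genes with this core included ERp44, eIF2Bgamma, eIF4E3 and Trim9, named here after the list was seen.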
